A study of Mus musculus with 12 samples.

Results

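The smooth muscle contractile genes of mouse colon were described as 32 genes named by symbol, out of 22377 genes in the deposited table. They comprise 8 genes of the thick and thin filaments, 9 genes that regulate those filaments, 10 genes of the cytoskeleton and its anchoring, 4 genes of calcium and potassium handling, and Myocd, a transcription coactivator. All 32 were found in the table, and 29 of them reached 1 FPKM (fragments per kilobase of transcript, scaled to the library's total of mapped fragments) in at least 4 libraries and were tested. Actc1, Itga8 and Myocd did not reach that level and were not tested. Messenger RNA of colon was sequenced in 12 libraries: 4 labelled FGF1, 4 labelled DSS and 4 labelled control. FGF1 is fibroblast growth factor 1, a secreted protein, and the series text speaks of giving its recombinant form to mice with bowel inflammation. DSS is dextran sulfate sodium, a polymer that injures the colon lining when mice drink it. The labels give no strain, age, dose or duration, and are silent on any DSS treatment of the FGF1 mice. They also do not say that the libraries of a group came from separate mice, so every p-value below measures only the spread between these libraries, which may be technical.

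As background, the muscle coat of the colon is made of smooth muscle cells arranged in circular and longitudinal layers, with a thin muscle layer under the mucosa and more such cells in vessel walls. Calcium that enters these cells binds calmodulin, which switches on myosin light chain kinase. The kinase phosphorylates the regulatory light chain of smooth muscle myosin, and myosin then pulls on filaments of smooth muscle actin, while caldesmon and calponin on the thin filament restrain that pull. Many of the genes are switched on by serum response factor and its partner myocardin, which act on a short DNA element called the CArG box. A sample of the colon wall holds muscle, epithelium and connective tissue in proportions that depend on the piece. In such bulk samples, fewer muscle cells and less of these RNAs per muscle cell cannot be told apart.

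The score of a library is the mean log2(FPKM + 1) over the 32 genes. It was 5.26, 4.99, 6.06 and 4.27 in FGF1 libraries 1 to 4, 4.81, 4.72, 4.18 and 3.58 in DSS libraries 1 to 4, and 5.26, 5.24, 6.46 and 6.12 in control libraries 1 to 4. All DSS scores lay below all control scores, and the FGF1 scores overlapped with both groups. Control 3 held the highest value of 27 of the 32 genes and DSS 4 the lowest of 27. FGF1 3 was among the highest 3 libraries for 26 genes, and FGF1 4 was among the lowest 3 for 26. Together the genes held 1.65%, 1.31%, 3.09% and 0.694% of all listed FPKM in the FGF1 libraries, 1.02%, 1.08%, 0.767% and 0.476% in the DSS libraries, and 1.403%, 1.303%, 3.69% and 2.797% in the control libraries. The median gene varied within a group by a coefficient of variation (SD over mean) of 63.3% in FGF1, 46.2% in DSS and 52.1% in control, so libraries of 1 group differed widely. DSS 3 and DSS 4 also stood apart from the other libraries in the isoforms of Myh11 and Tpm1 described below. The FGF1 libraries listed 11782 to 12245 genes at 1 FPKM or more, the DSS libraries 11190 to 12101 and the control libraries 12287 to 12721, and the read depth is not known.

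**Figure D1:**
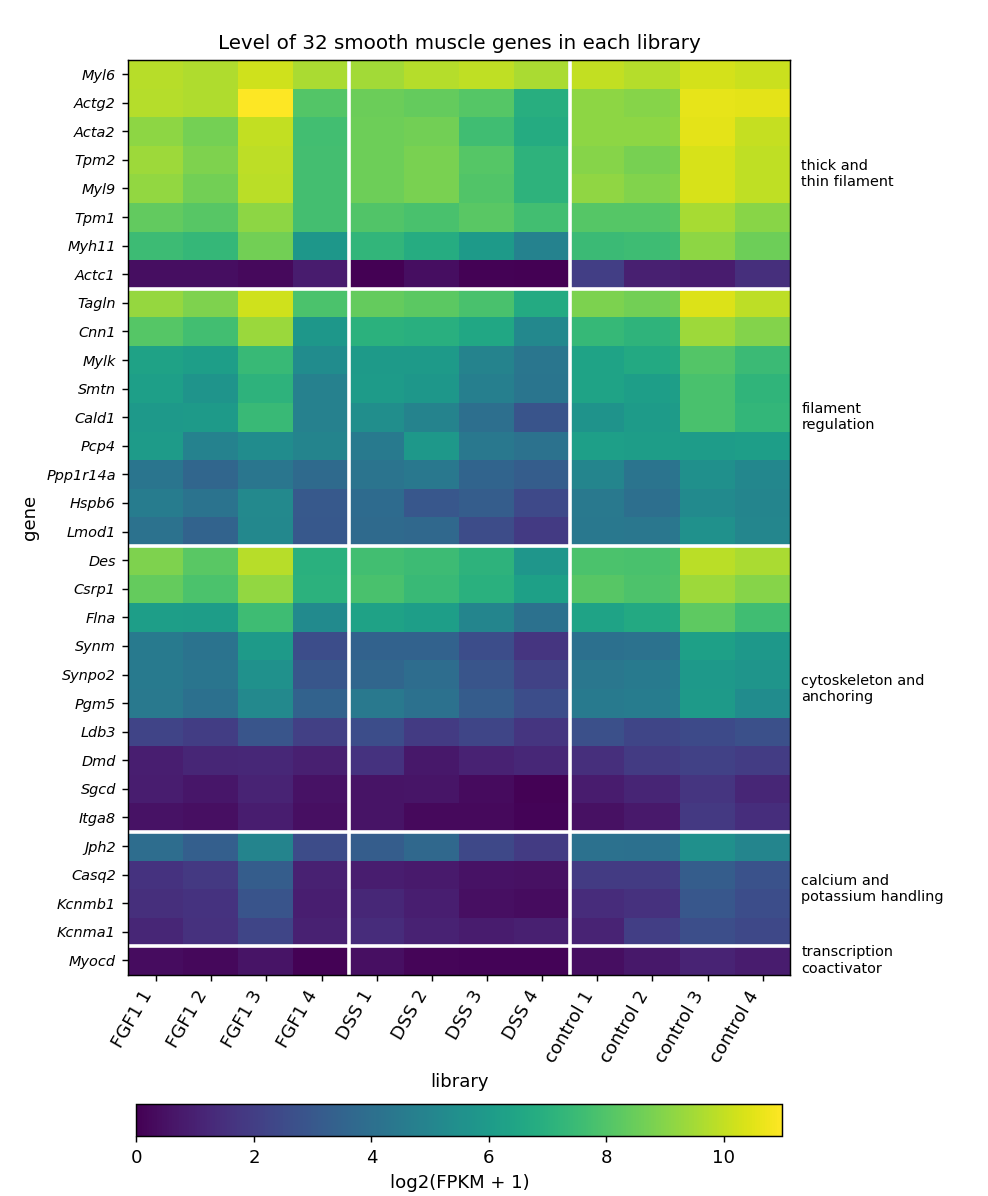
The heat map shows log2(FPKM + 1) of the 32 genes (rows, by role and then by mean level) in the 12 libraries (columns: FGF1, DSS and control, 4 each). Control 3, control 4 and FGF1 3 are bright across most rows, with scores of 6.46, 6.12 and 6.06, and DSS 4 is darkest with 3.58.

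DSS colon was set against control colon. Of the 29 tested genes, 12 fell in DSS and none rose, at an adjusted p under 0.05 (limma, adjusted over all 12578 genes tested). The background was 10.1% of all tested genes called lower and 2.23% called higher. Casq2 and Sgcd, which are among the 12, entered the test only through libraries where they were high, as described below. Log2 fold changes were negative for all 29, with a median of -1.65 against -0.07 over all genes, and 27 of the 29 had an unadjusted p under 0.05 (limma). The share of all genes at that unadjusted level was not counted, here or for the gene counts below. In 22 of the 29 every DSS library lay below every control library, against 13.3% of all tested genes, and in none did every DSS library lie above every control library, against 3.67% of all tested genes. The calls rested on few libraries: none of the 12 remained without control 3, without control 4, without DSS 3 or without DSS 4, although all fold changes of the genes tested stayed negative (Sgcd was not tested without control 3 or without control 4). The number of these genes called was 5 without FGF1 2, 18 without DSS 1, 20 without FGF1 3 and 21 without FGF1 4. With DSS 3 and DSS 4 both left out, the 29 log2 fold changes ran from -1.64 to -0.26. With values limited to transcripts that had a start event, 4 calls remained (Casq2, Dmd, Pcp4 and Sgcd).

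**Figure D2:**
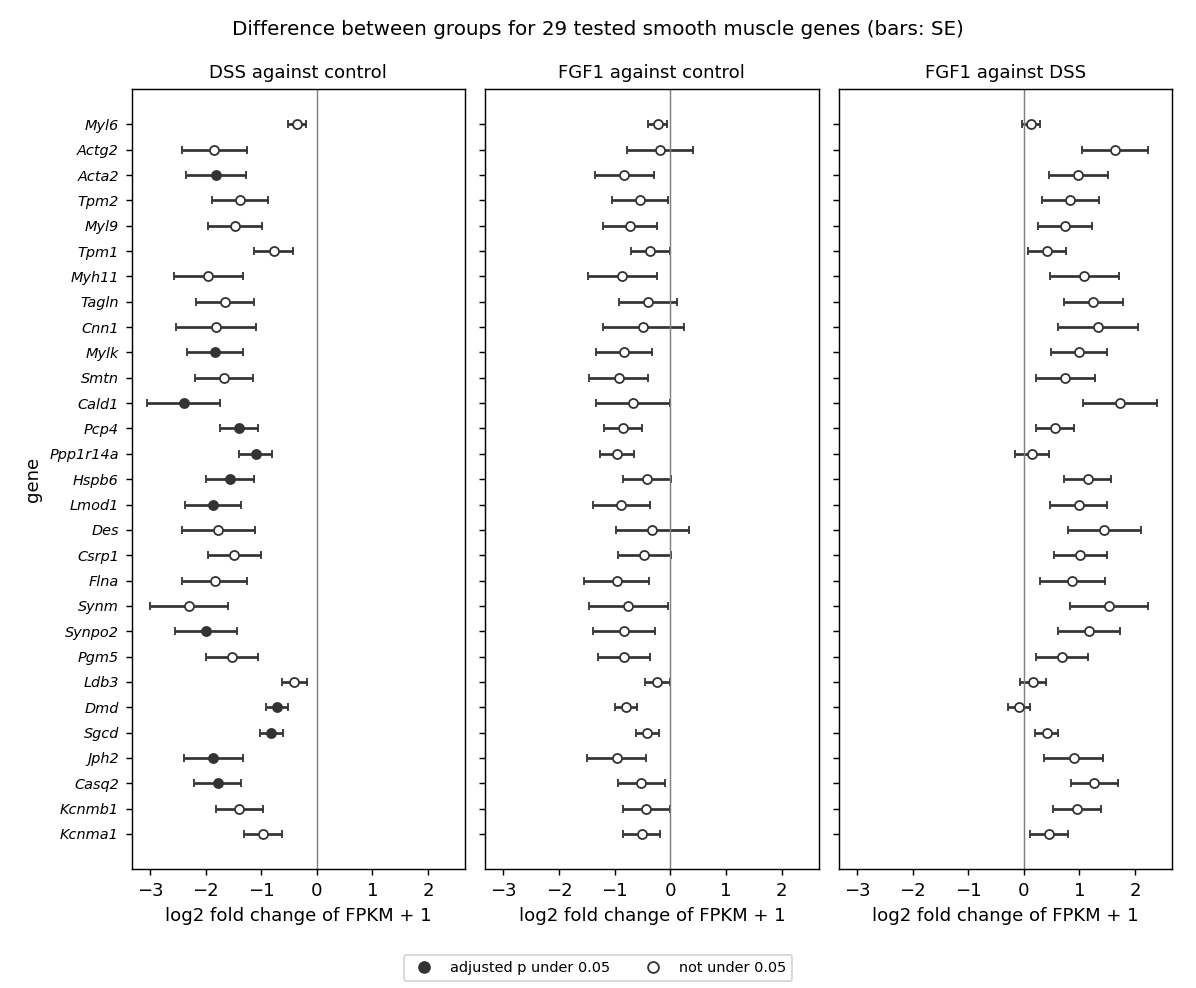
Points show the log2 fold change of FPKM + 1 for the 29 tested genes in each of the 3 comparisons, with bars for the SE. Filled points have an adjusted p under 0.05: 12 in DSS against control, and none in FGF1 against control or FGF1 against DSS.

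Among the genes of the thick and thin filaments, only Acta2 was called of the 7 tested, against 10.1% of all tested genes called lower. Acta2, the alpha actin of vascular and visceral smooth muscle (chromosome 19, 34241090 to 34255590, minus strand, GRCm38), had 564, 419, 1017 and 201 FPKM in FGF1 libraries 1 to 4, 377, 399, 197 and 107 FPKM in DSS libraries 1 to 4, and 551, 553, 1495 and 1057 FPKM in control libraries 1 to 4. Every DSS value lay below every control value, while FGF1 overlapped with both groups (log2 fold change -1.81 ± 0.53 (SE), adjusted p = 0.0467 for DSS against control). That call was near the threshold and held in 9 of 27 alternatives. Actg2, the gamma actin of gut muscle (chromosome 6, 83512905 to 83536265, minus strand), had 868, 822, 2040.0 and 263 FPKM in FGF1, 367, 333, 271 and 118 in DSS and 554, 513, 1539 and 1494 in control. Its DSS values were also below all control values, yet it missed the threshold (log2 fold change -1.84 ± 0.59 (SE), adjusted p = 0.0619). Actin genes are close in coding sequence, and the sources used here do not say how reads shared between them were assigned.

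Myl6, the essential light chain of smooth muscle and nonmuscle myosin, had 907, 819.8, 1168 and 771 FPKM in FGF1, 711, 859.9, 992 and 771 in DSS and 1025, 875, 1244 and 1123 in control. Its level differed least of the filament genes, with a difference between the DSS and control groups of log2 fold change -0.35 ± 0.17 (SE), adjusted p = 0.198. Tpm2, a tropomyosin that lies along the actin filament, had 668, 464, 958 and 209 FPKM in FGF1, 378, 434, 273 and 135 in DSS and 513, 432, 1292 and 989 in control. DSS overlapped with control only because DSS 2 (434 FPKM) lay just above control 2 (432 FPKM), and the difference was log2 fold change -1.38 ± 0.51 (SE), adjusted p = 0.0943. Myh11, the heavy chain of smooth muscle myosin, averaged 88.3 ± 53.7 FPKM in DSS and 325 ± 179 FPKM in control (SD, n = 4 each). Its difference was -1.95 ± 0.62, adjusted p = 0.0592 on the log2 scale. Myl9, the regulatory light chain, averaged 303 ± 136 FPKM in DSS and 829.6 ± 375 FPKM in control (log2 fold change -1.47 ± 0.49 (SE), adjusted p = 0.0675). Tpm1, the other main tropomyosin, averaged 243 ± 37.4 FPKM in DSS and 454 ± 230.2 FPKM in control (log2 fold change -0.78 ± 0.35 (SE), adjusted p = 0.1696). Actc1, the cardiac alpha actin, stayed at or below 3.12 FPKM in all libraries and was listed at 0 in DSS 1 and DSS 4.

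Of the 9 genes that regulate the filaments, 6 fell in DSS, against 10.1% of all tested genes. In 8 of the 9, DSS lay below control without overlap, against 13.3% of all tested genes. Mylk, the myosin light chain kinase (chromosome 16, 34745210 to 35002420, plus strand), had 80.8, 70.5, 168 and 39.3 FPKM in FGF1, 63.3, 62.95, 29.7 and 19.2 in DSS and 81.7, 101, 264 and 180.01 in control. Cald1, caldesmon (chromosome 6, 34598500 to 34775473, plus strand), had 58.8, 61.9, 175 and 27.2 FPKM in FGF1, 41.9, 29.1, 15.4 and 6.29 in DSS and 48.7, 64.7, 228 and 156 in control. Both were lower in every DSS library than in any control library, and Cald1 had the largest fold change of the 29 genes (log2 fold change -2.39 ± 0.66 (SE), adjusted p = 0.0365), against -1.83 ± 0.50, adjusted p = 0.0356 for Mylk. Lmod1, leiomodin, which nucleates actin filaments, had 16.6, 10.5, 34.4 and 7.22 FPKM in FGF1, 12.7, 12.1, 4.92 and 2.61 in DSS and 19.9, 19.5, 46.3 and 32.1 in control (log2 fold change -1.86 ± 0.51 (SE), adjusted p = 0.0347). Hspb6, a small heat shock protein linked to muscle relaxation, had 23.6, 17.1, 35.2 and 7.41 FPKM in FGF1, 13.3, 6.88, 8.38 and 4.37 in DSS and 20.5, 15.3, 36.9 and 31.4 in control (log2 fold change -1.56 ± 0.43 (SE), adjusted p = 0.0356). For both of these genes FGF1 4 was the lowest FGF1 library and lay within the DSS range.

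Ppp1r14a inhibits the phosphatase that removes phosphate from the myosin light chain. It had 18.3, 11.3, 19.1 and 12.8 FPKM in FGF1, 18.1, 20.2, 10.6 and 8.56 in DSS and 31.1, 17.9, 44.6 and 33.3 in control. The groups overlapped because control 2 was lower than DSS 1 and DSS 2, yet the gene was called (log2 fold change -1.10 ± 0.30 (SE), adjusted p = 0.0363). Pcp4, a small protein that modulates calmodulin, had 63.7, 28.1, 39.4 and 30.04 FPKM in FGF1, 21.9, 57.9, 20.4 and 16.5 in DSS and 72.3, 67.9, 66.5 and 71.5 in control. Its 4 control values lay within 66.5 to 72.3 FPKM, above all DSS and all FGF1 values (log2 fold change -1.40 ± 0.34 (SE), adjusted p = 0.0214 for DSS against control), so control 3 did not stand out in Pcp4 as it did in most of the genes. Pcp4 is also made by neurons, and the enteric neuron and glia list is given below.

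The 3 remaining regulators were not called. Tagln, transgelin, an actin-binding protein of smooth muscle, had 611, 460.4, 1171 and 236 FPKM in FGF1, 337, 299.95, 228 and 105 in DSS and 451, 405, 1366 and 951 in control. Cnn1, calponin, had 275, 199.5, 646 and 55.2 FPKM in FGF1, 128, 119.7, 91.3 and 34.2 in DSS and 164, 139, 669.7 and 494 in control. Smtn, smoothelin, a marker of contractile muscle cells, had 72.05, 50.8, 138 and 27.2 FPKM in FGF1, 63.7, 55.6, 25.9 and 18.3 in DSS and 81.6, 70.1, 225 and 145 in control. In each of them every DSS library was below every control library, and FGF1 3 was the highest and FGF1 4 the lowest FGF1 library. The adjusted p was 0.0608 for Tagln (limma, log2 fold change -1.65), 0.124 for Cnn1 (-1.81) and 0.05902 for Smtn (-1.67).

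Of the 9 tested genes of the cytoskeleton and its anchoring, 3 fell in DSS (Synpo2, Dmd and Sgcd), against 10.1% of all tested genes. Synpo2, synaptopodin 2, an actin-binding protein of dense bodies and Z discs, had 21.4, 18.6, 46.9 and 6.67 FPKM in FGF1, 11.2, 14.2, 6.45 and 3.53 in DSS and 19.6, 22.4, 61.2 and 52.4 in control (log2 fold change -1.998 ± 0.56 (SE), adjusted p = 0.0371). Dmd, dystrophin, had 0.869, 1.28, 1.34 and 0.969 FPKM in FGF1, 2.02, 0.652, 1.09 and 1.36 in DSS and 1.78, 2.75, 3.43 and 2.89 in control. FGF1 values of Dmd all lay below the control values, and DSS 1 overlapped with control (log2 fold change -0.72 ± 0.20 (SE), adjusted p = 0.0359 for DSS against control). Sgcd, delta-sarcoglycan, is a membrane partner of dystrophin. It had 0.857, 0.579, 1.17 and 0.458 FPKM in FGF1, 0.4900, 0.535, 0.2503 and 0.04495 in DSS and 0.764, 1.22, 2.24 and 1.298 in control, with a difference of log2 fold change -0.82 ± 0.21 (SE), adjusted p = 0.0253. Sgcd reached 1 FPKM only in control 2, control 3, control 4 and FGF1 3, so it entered the test through libraries where it was high, and its call is not independent of the filter. It was not tested when any of those 4 libraries was left out.

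Des, desmin, the intermediate filament of muscle, had 467, 294, 908 and 124 FPKM in FGF1, 201, 186, 135 and 53.7 in DSS and 232, 229, 927 and 768 in control. Csrp1, a LIM protein of smooth muscle, had 331, 238, 595 and 133 FPKM in FGF1, 229, 172, 126 and 74.7 in DSS and 278, 242, 674 and 507 in control. Flna, filamin A, which crosslinks actin, had 70.7, 69.4, 188 and 36.8 FPKM in FGF1, 79.00, 70.2, 31.4 and 16.3 in DSS and 81.2, 102, 307 and 198 in control. In all 3 the DSS values lay below the control values, with adjusted p of 0.0962 for Des, 0.0608 for Csrp1 and 0.0608 for Flna (limma, log2 fold changes -1.77, -1.48 and -1.84). Synm, synemin, an intermediate filament protein that pairs with desmin, had 22.4, 17.01, 63.2 and 5.12 FPKM in FGF1, 9.95, 9.83, 5.05 and 2.26 in DSS and 15.7, 16.9, 75.7 and 57.2 in control, with a difference of log2 fold change -2.29 ± 0.70 (SE), adjusted p = 0.0527. Pgm5, a protein of adherens junctions and dense plaques, averaged 12.6 ± 7.197 FPKM in DSS and 36.7 ± 18.5 FPKM in control (log2 fold change -1.52 ± 0.46 (SE), adjusted p = 0.0522). Ldb3, a Z-disc protein of striated muscle, averaged 3.52 ± 1.26 FPKM in DSS and 4.84 ± 0.738 FPKM in control and overlapped between them (log2 fold change -0.40 ± 0.23 (SE), adjusted p = 0.284). Itga8, an integrin subunit of smooth muscle, stayed between 0.0712 and 2.52 FPKM over all libraries.

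Of the 4 genes of calcium and potassium handling, 2 fell in DSS, against 10.1% of all tested genes. Casq2, calsequestrin 2, which stores calcium in the sarcoplasmic reticulum (chromosome 3, 102086415 to 102146514, plus strand), had 2.07, 2.59, 8.61 and 1.02 FPKM in FGF1, 0.814, 0.729, 0.449 and 0.415 in DSS and 2.76, 2.77, 8.38 and 5.76 in control. All FGF1 and all control values were above 1 FPKM and all DSS values below it, so Casq2 too passed the filter through groups where it was high (log2 fold change -1.78 ± 0.42 (SE), adjusted p = 0.0201 for DSS against control). Casq2 kept its call in 21 of 26 alternatives, as Pcp4 did in 21 of 27. With 1 FPKM required in all 12 libraries, Casq2 was not tested. Most of the other alternatives used the same filter as the main fit, so the count for Casq2 is not independent of that filter. Jph2, junctophilin 2, which ties that store to the cell membrane, had 14.4, 9.15, 30.4 and 4.88 FPKM in FGF1, 8.404, 11.98, 4.22 and 2.72 in DSS and 15.98, 15.5, 44.8 and 31.1 in control (log2 fold change -1.86 ± 0.53 (SE), adjusted p = 0.04100). Kcnmb1 and Kcnma1 encode the beta and alpha subunits of the calcium-activated potassium channel that limits contraction. Kcnmb1 had 1.77, 2.03, 6.16 and 0.896 FPKM in FGF1, 1.31, 0.915, 0.387 and 0.298 in DSS and 1.66, 1.98, 6.88 and 5.06 in control (log2 fold change -1.39 ± 0.43 (SE), adjusted p = 0.0529). Kcnma1 had 1.28, 1.94, 3.88 and 1.04 FPKM in FGF1, 1.62, 1.08, 0.7697 and 0.964 in DSS and 1.105, 3.06, 5.297 and 4.16 in control, with control 1 inside the DSS range (log2 fold change -0.97 ± 0.34 (SE), adjusted p = 0.0811). Myocd, myocardin, had 0.272, 0.185, 0.514 and 0.0535 FPKM in FGF1, 0.352, 0.117, 0.0861 and 0.0728 in DSS and 0.3197, 0.655, 1.13 and 0.795 in control, and control 3 alone reached 1 FPKM.

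Other genes of contraction and of its control were read from lists compiled with earlier results of these data known. Their counts stand beside 10.1% of all tested genes called lower in DSS and 2.23% called higher. In the list of other contraction control, 5 genes stayed below 1 FPKM in all DSS libraries. Any of them that were tested passed the filter through the other groups. Of 30 tested genes of other contraction control, 11 fell in DSS and 1 rose, with a median log2 fold change of -0.65. Those with the largest changes were Ppp1r12b, a subunit of the light chain phosphatase in muscle (-1.87 ± 0.55, adjusted p = 0.04697), Gucy1b1 and Gucy1a1, the subunits of the nitric oxide receptor (-1.59 ± 0.31, adjusted p = 0.00841 and -1.47 ± 0.40, adjusted p = 0.0331), and Gja1, connexin 43 (-1.57 ± 0.29, adjusted p = 0.00733). Of 32 other genes of the muscle cytoskeleton, adhesion and caveolae, 20 fell and none rose (median -1.36), among them Fermt2, kindlin-2 (-2.10 ± 0.47, adjusted p = 0.0161), Palld, palladin (-1.92 ± 0.55, adjusted p = 0.0424), Cavin1, a coat protein of caveolae (-1.83 ± 0.40, adjusted p = 0.0133), and Lims2 (-1.76 ± 0.51, adjusted p = 0.0433). Of 16 tested regulators of transcription and RNA in muscle, 5 fell and none rose, led by Tcf21 (-2.22 ± 0.30, adjusted p = 0.00317), Nkx2-3 (-1.61 ± 0.27, adjusted p = 0.00484), Foxf1 (-1.56 ± 0.35, adjusted p = 0.0158) and Rbpms, an RNA-binding protein of smooth muscle (-1.49 ± 0.35, adjusted p = 0.0197). Tcf21 and Foxf1 are also genes of fibroblasts and other mesenchymal cells. Srf, serum response factor, averaged 16.2 FPKM in DSS and 24.05 FPKM in control and did not pass (-0.53 ± 0.22, adjusted p = 0.137).

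Markers of several other cell types of the colon wall were lower in DSS together with the smooth muscle genes. The counts below stand beside 10.1% of all tested genes called lower in DSS. Fibroblast markers fell in 12 of 12 tested genes in DSS, with a median log2 fold change of -2.50, below the median of the smooth muscle genes. Mfap5, 1 of the 12, stayed below 1 FPKM in all DSS libraries (mean 0.262 FPKM, against 2.05 FPKM in control). It passed the filter only through the other groups, so its call is not independent of the filter. Their summed level was 89.3 to 254 FPKM in FGF1, 16.7 to 104 FPKM in DSS and 298 to 432 FPKM in control, and Col3a1, a fibrillar collagen (-3.06 ± 0.46, adjusted p = 0.00368), and Clec3b (-3.02 ± 0.33, adjusted p = 0.00117) led them. Endothelial markers fell in 7 of 9 tested genes, with sums of 22.1 to 38.9 FPKM in FGF1, 7.44 to 34.5 FPKM in DSS and 56.5 to 69.00 FPKM in control; Plvap (-2.31 ± 0.39, adjusted p = 0.004996) led. Markers of vascular mural cells, which share much of the contractile program, fell in 5 of 7, with sums of 43.03 to 126 FPKM in FGF1, 17.1 to 87.7 FPKM in DSS and 105 to 229 FPKM in control. Rgs4 led those called (-1.54 ± 0.40, adjusted p = 0.0277), while Rgs5 of that list had a larger difference and was not called (-1.70 ± 0.53, adjusted p = 0.0552). Higd1b of that list stayed below 1 FPKM in all libraries. Macrophage markers fell in 6 of 7, with sums of 30.9 to 102 FPKM in FGF1, 17.5 to 40.2 FPKM in DSS and 79.7 to 136 FPKM in control, led by C1qb (-2.17 ± 0.31, adjusted p = 0.00327). Below 1 FPKM in all DSS libraries were also 2 of 10 listed endothelial markers, 3 of 10 mural markers and 1 of 8 macrophage markers. Any of these that were tested passed the filter through the other groups, so their calls are not independent of it.

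Of the pacemaker cells that drive gut muscle, the interstitial cells of Cajal, 3 of 6 markers fell in DSS, with Ano1 ahead (-1.66 ± 0.34, adjusted p = 0.0112) and sums of 31.04 to 53.4 FPKM in FGF1, 20.3 to 31.1 FPKM in DSS and 26.9 to 69.6 FPKM in control. Log2 fold changes were negative for 5 of these 6 (median -0.71), and 5 had an unadjusted p under 0.05 (limma). Of 12 markers of enteric neurons and glia 1 was called lower, Vip (-2.46 ± 0.37, adjusted p = 0.00368), with sums of 27.4 to 56.1 FPKM in FGF1, 14.5 to 57.7 FPKM in DSS and 54.3 to 137 FPKM in control. That count was near the share of all tested genes called lower (10.1%), which also stands beside the other counts here. Log2 fold changes were negative for 11 of these 12 (median -0.80), and 10 had an unadjusted p under 0.05 (limma). None of 7 tested adipocyte markers was called, and 2 had an unadjusted p under 0.05; Fabp4 had -2.34 ± 0.71, adjusted p = 0.0501, with list sums of 23.3 to 205 FPKM in FGF1, 13.3 to 114 FPKM in DSS and 57.9 to 381 FPKM in control. Among markers of skeletal and cardiac muscle 1 of 3 tested fell, Ckm (-1.24 ± 0.37, adjusted p = 0.0483), while Mb, Myh1, Myh2, Myh6 and Myh7 stayed below 1 FPKM in all libraries, with list sums of 13.8 to 26.9 FPKM in FGF1, 6.301 to 13.1 FPKM in DSS and 15.8 to 29.7 FPKM in control. No mesothelial marker passed the filter (Wt1, Gpm6a, Lrrn4 and Msln stayed below 1 FPKM in all libraries), and that list summed to 0.307 to 2.52 FPKM in FGF1, 0.406 to 4.997 FPKM in DSS and 1.07 to 3.704 FPKM in control. Markers of colon epithelium summed to 7838 to 9909.5 FPKM in FGF1, 7663 to 9677 FPKM in DSS and 7080.0 to 7785 FPKM in control. Of these 12 markers 1 rose, Lgals4 (0.54 ± 0.15, adjusted p = 0.0379), against 2.23% of all tested genes called higher, and none fell. The part of tissue composition in the differences of the smooth muscle genes was not tested.

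**Figure D3:**
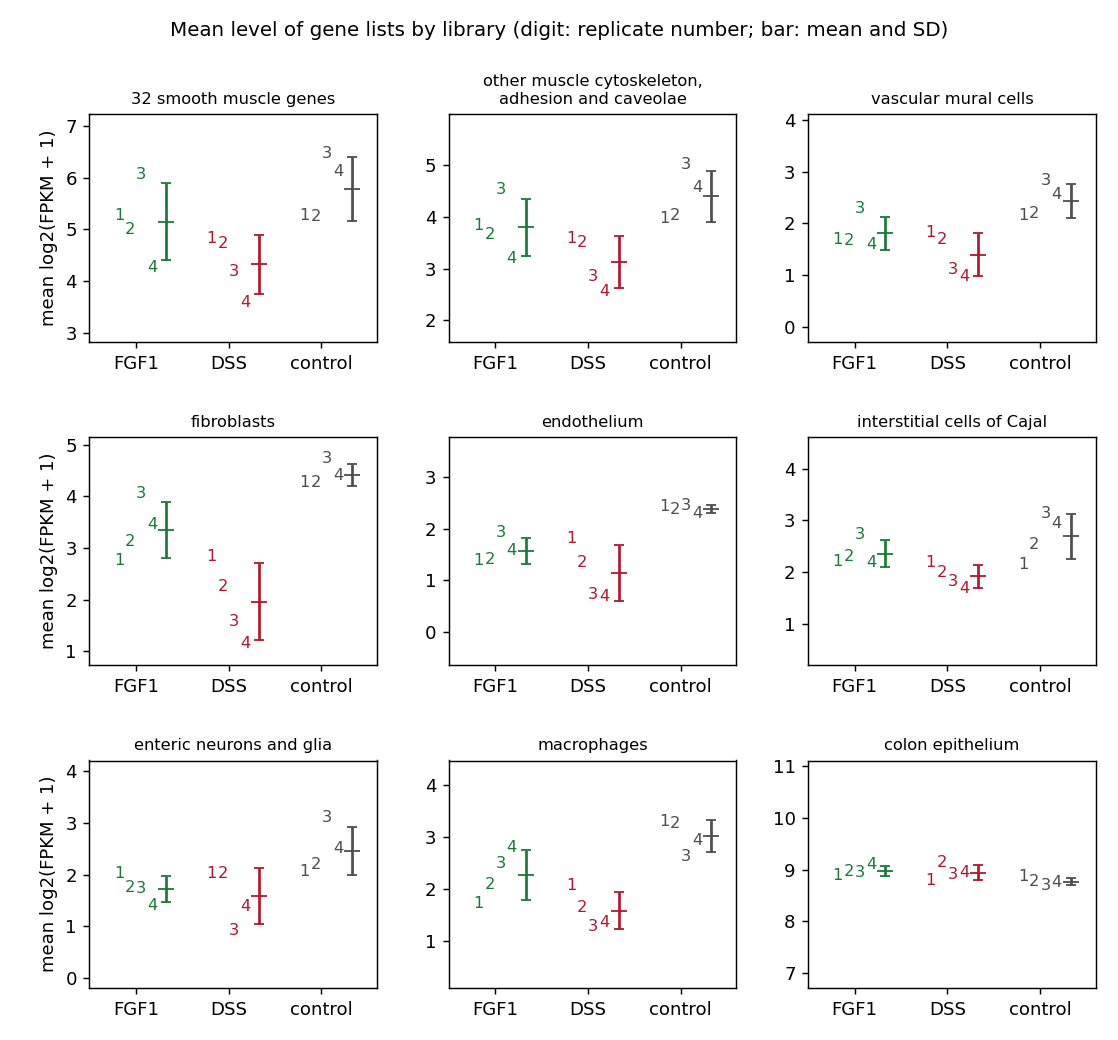
Each panel shows the mean log2(FPKM + 1) of a gene list (vertical axis, the same span in all panels) in each library (digits are replicate numbers) for FGF1, DSS and control, with bars for the group mean and SD. Fibroblast scores run from 2.76 to 4.05 in FGF1, from 1.15 to 2.84 in DSS and from 4.26 to 4.73 in control, and epithelial scores stay between 8.69 and 9.14 in all libraries.

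FGF1 colon was then compared with control colon and with DSS colon. These comparisons share the FGF1 libraries with each other, and each shares 1 more group with the comparison of DSS with control. Against control, 0 of 29 smooth muscle genes were called, with 3 at an unadjusted p under 0.05; over all genes 0.0716% were called lower and 0.00795% higher. All 29 log2 fold changes were negative, with a median of -0.67, and 2 genes did not overlap between FGF1 and control, against 6.61% of all genes lower without overlap and 3.66% higher. Both were lower in FGF1. Those were Dmd (log2 fold change -0.80 ± 0.20 (SE), adjusted p = 0.127) and Pcp4 (log2 fold change -0.85 ± 0.34 (SE), adjusted p = 0.2900). The third gene at that level was Ppp1r14a (log2 fold change -0.96 ± 0.30 (SE), adjusted p = 0.193). With array weights, which give noisy libraries less influence, Dmd and Ppp1r14a were called.

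Against DSS, 0 of 29 genes were called in FGF1 colon, with 8 at an unadjusted p under 0.05; over all genes 0.0398% were called higher and 0.0159% lower. The log2 fold change was positive for 28 of 29, with a median of 0.96, and Dmd was the exception (log2 fold change -0.082 ± 0.20 (SE), adjusted p = 0.905). Casq2 alone did not overlap between FGF1 and DSS (log2 fold change 1.26 ± 0.42 (SE), adjusted p = 0.254), against 4.45% of all genes higher without overlap and 1.83% lower. As Casq2 passed the filter only through the FGF1 and control libraries, where it was high, that separation is not independent of the filter. The largest differences were in Cald1 (log2 fold change 1.73 ± 0.66 (SE), adjusted p = 0.315), Actg2 (log2 fold change 1.65 ± 0.59 (SE), adjusted p = 0.288), Synm (log2 fold change 1.54 ± 0.70 (SE), adjusted p = 0.3997) and Des (log2 fold change 1.45 ± 0.65 (SE), adjusted p = 0.3900). The smallest positive differences were in Myl6 (0.13 ± 0.17, adjusted p = 0.795), Ppp1r14a (0.14 ± 0.30, adjusted p = 0.888) and Ldb3 (0.17 ± 0.23, adjusted p = 0.805). FGF1 4 lay inside or below the DSS range for most of the genes. The SEs of the 29 differences ran from 0.17 to 0.72, and an adjusted p above the threshold does not show that FGF1 and DSS colon had the same levels. Fibroblast markers differed in the same direction, with all 12 tested genes positive (median 1.33), none of them called and 11 at an unadjusted p under 0.05.

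Most of the genes were high or low together in a library, and their ratios within a library show where the set was not uniform. These ratios were chosen with earlier values known and were not tested. More ratios were computed than are given here, and how often groups separated among all of them was not counted. Actg2 over Acta2, gut over vascular-type smooth muscle actin, was 1.54, 1.96, 2.01 and 1.31 in FGF1 libraries, 0.975, 0.835, 1.38 and 1.11 in DSS libraries and 1.01, 0.928, 1.03 and 1.41 in control libraries. The mean ratio was 1.703 ± 0.338 in FGF1, 1.08 ± 0.232 in DSS and 1.09 ± 0.217 in control (SD, n = 4 each), with FGF1 highest on average, DSS and control overlapping, and FGF1 4 inside the range of both. Tagln over Acta2 was 1.08, 1.098, 1.15 and 1.17 in FGF1 libraries, 0.895, 0.752, 1.16 and 0.985 in DSS libraries and 0.819, 0.732, 0.914 and 0.8999 in control libraries, with every FGF1 value above every control value. Actg2 over Myh11 was 4.76, 5.18, 5.12 and 4.805 in FGF1 libraries, 2.43, 3.02, 4.33 and 4.12 in DSS libraries and 3.11, 2.703, 2.77 and 3.97 in control libraries, and all FGF1 values lay above all values of both other groups. Myh11 over Acta2 overlapped between all groups, with means of 0.341 ± 0.0549 in FGF1, 0.317 ± 0.0605 in DSS and 0.349 ± 0.0205 in control. Myl6 over Myl9, a light chain shared with nonmuscle cells over the muscle one, was 1.54, 2.02, 1.27 and 3.71 in FGF1 libraries, 1.86, 1.95, 3.88 and 5.71 in DSS libraries and 1.798, 1.82, 0.966 and 1.15 in control libraries. It was highest in DSS 4, DSS 3 and FGF1 4, the libraries with the lowest scores of the set. Both genes are part of that score and Myl9 follows it closely, so this match is not an independent observation.

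**Figure D4:**
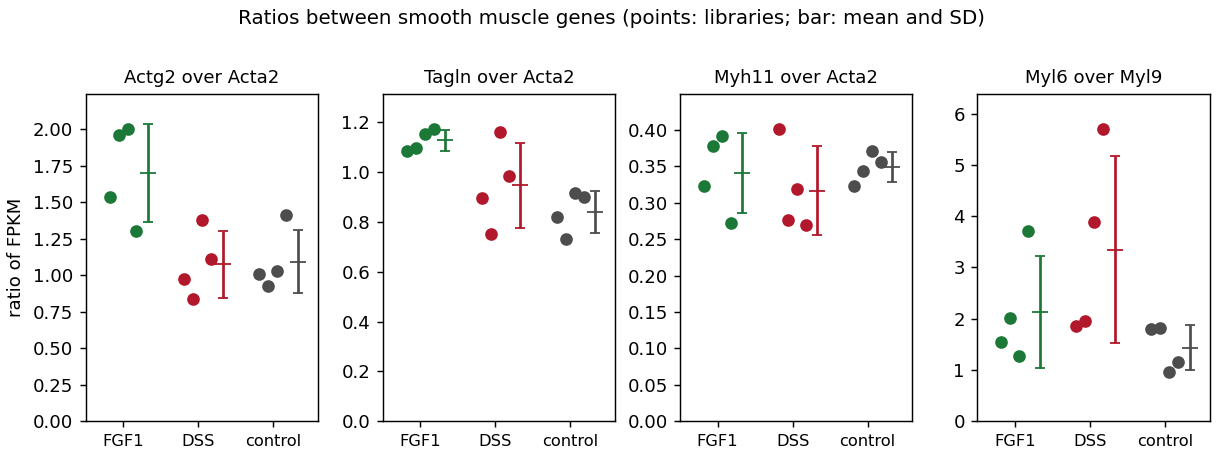
Points show the ratio of 2 genes' FPKM in each library for FGF1, DSS and control, with bars for the mean and SD (n = 4 each). Actg2 over Acta2 is 1.31 to 2.01 in FGF1, 0.835 to 1.38 in DSS and 0.928 to 1.41 in control, and Myl6 over Myl9 reaches 5.71 in DSS 4.

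Set against the mean of the other 31 genes in the same library (log2 scale, no test), the genes divided by how much they followed the set. In DSS minus control, the genes furthest below the set were Cald1 (-0.98), Synm (-0.87) and Synpo2 (-0.57), and those furthest above it were Myl6 (1.13), Ldb3 (1.08) and Myocd (0.91). Myocd and Ldb3 have low levels, where log2(FPKM + 1) compresses a difference. In FGF1 minus DSS, the highest were Cald1 (0.94), Actg2 (0.85) and Synm (0.74), and Dmd was the lowest (-0.93). Over the 12 libraries, the SD around the set was smallest for Csrp1 (0.17) and then Myl9 (0.18). In differences of group means, Tpm2 and Myl9 followed the set most closely. Tpm2 differed from it by 0.066 in DSS minus control, by 0.017 in FGF1 minus DSS and by 0.083 in FGF1 minus control, and the same values for Myl9 were -0.023, -0.082 and -0.10.

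Several of the genes make more than 1 muscle isoform, and the table holds FPKM per listed transcript. Sequences of the alternative exons are shown because these isoforms set DSS 3 and DSS 4 apart from the other 10 libraries. Myh11 has a 21-base exon that adds 7 codons near the nucleotide pocket of the motor (the SM-B form) and a 39-base exon near the end of the coding sequence that carries an earlier stop codon (the SM2 tail; without it the longer SM1 tail is made). All exons below are on the minus strand of GRCm38, written 5′ to 3′ in the sense of the transcript, with positions and sequences from the GENCODE vM21 annotation. Capitals mark the whole insert in the first, the in-frame stop codon in the second, and in the Tpm1 pair the 33 of 76 bases that differ between the mutually exclusive exons 6a and 6b, each of which ends up in a given tropomyosin in place of the other.
Myh11 21-base exon, chr16:14248580-14248600: CAAGGTCCATCTTTTGCCTAC
Myh11 39-base exon, chr16:14198050-14198088: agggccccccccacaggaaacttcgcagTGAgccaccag
Tpm1 exon 6a, chr9:67032466-67032541: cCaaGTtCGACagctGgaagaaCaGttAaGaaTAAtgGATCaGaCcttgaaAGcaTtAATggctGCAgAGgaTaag
Tpm1 exon 6b, chr9:67031951-67032026: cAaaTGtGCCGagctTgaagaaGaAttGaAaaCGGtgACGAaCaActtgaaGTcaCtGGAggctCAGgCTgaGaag

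Transcripts with the 21-base exon held 50.1, 14.8, 39.7 and 45.5% in FGF1 libraries 1 to 4, 13.5, 11.8, 91.9 and 91.2% in DSS libraries 1 to 4 and 52.9, 33.7, 12.5 and 37.1% in control libraries 1 to 4 of the Myh11 FPKM that could be assigned. DSS 3 and DSS 4 were highest, and the other 10 libraries lay between 11.8% and 52.9%. Transcripts with the 39-base exon held 43.8, 52.6, 56.7 and 49.1% in FGF1 libraries 1 to 4, 67.8, 50.2, 5.04 and 6.13% in DSS libraries 1 to 4 and 41.9, 63.00, 66.7 and 59.4% in control libraries 1 to 4. DSS 3 and DSS 4 were lowest, against 41.9% to 67.8% in the others. No annotated Myh11 transcript holds both exons, so these shares cannot vary independently: Myh11-204 carries the 21-base exon, Myh11-202 the 39-base exon and Myh11-201 neither. In DSS 1 and DSS 2 the share of Myh11-204 was 13.4% and 11.8%, at the low end of all libraries, so the DSS group was split and its mean stands for no library in it.

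Tpm1 showed the same division of libraries. The share of exon 6a among transcripts with 6a or 6b was 25.6, 33.4, 21.5 and 56.7% in FGF1 libraries 1 to 4, 43.7, 34.9, 83.3 and 85.9% in DSS libraries 1 to 4 and 30.9, 29.6, 13.5 and 17.7% in control libraries 1 to 4. The share of exon 2a, the exon typical of smooth muscle, among transcripts with 2a or 2b was 77.8, 68.9, 84.5 and 41.3% in FGF1 libraries 1 to 4, 55.9, 63.6, 98.5 and 97.5% in DSS libraries 1 to 4 and 81.1, 70.7, 87.4 and 87.4% in control libraries 1 to 4. In DSS 3 and DSS 4 both shares were the highest of all libraries. Tpm1-214, with exons 2a and 6a, made up 81.6% and 83.3% of Tpm1 in those libraries, against 8.85% to 14.2% in the other 10, while Tpm1-215, with exons 2a and 6b, made up 4.49% and 2.800%. In level, Tpm1-214 was at 235 and 167 FPKM in DSS 3 and DSS 4, above its highest value elsewhere (79.2 FPKM in FGF1 3), in libraries that were among the lowest 3 for most of the set. Whether library quality or transcript assembly moves with this division was not tested.

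**Figure D5:**
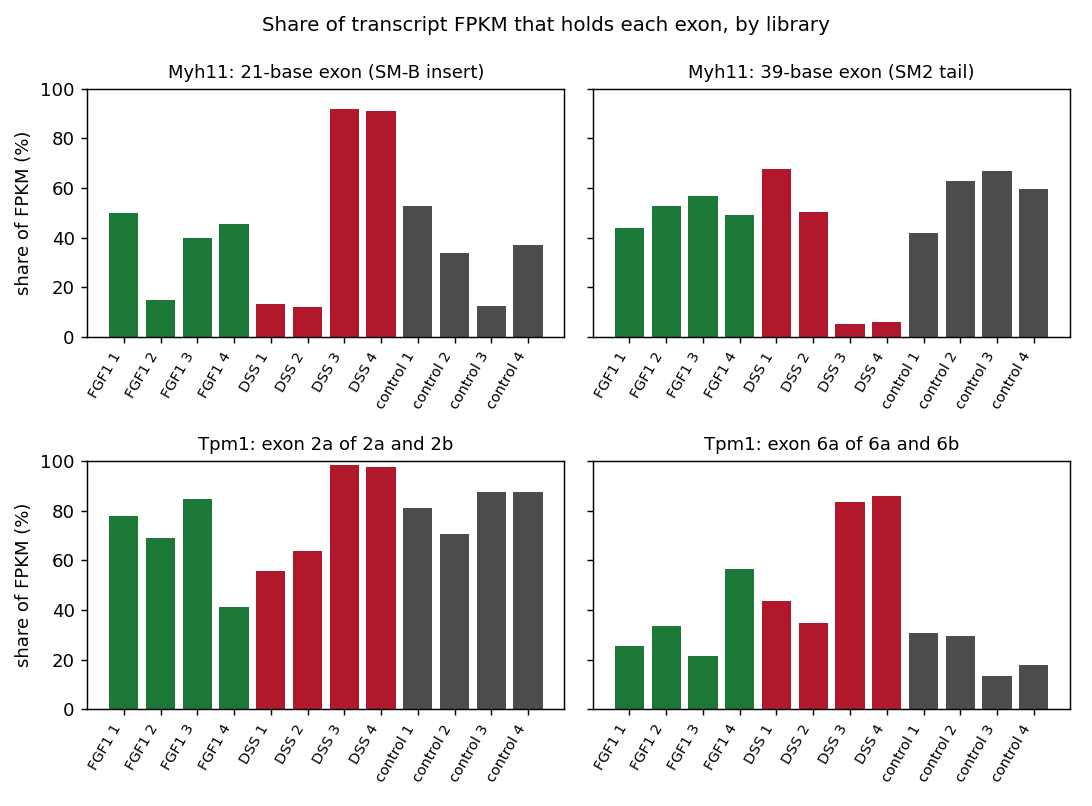
Bars show the percent of FPKM of the transcripts concerned that carry the Myh11 21-base exon, the Myh11 39-base exon, Tpm1 exon 2a and Tpm1 exon 6a in each of the 12 libraries. DSS 3 and DSS 4 are at 91.9% and 91.2% for the 21-base exon and at 5.04% and 6.13% for the 39-base exon, apart from DSS 1 and DSS 2.

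In the test of shares over 13097 transcripts, 0 of 29 transcripts of these genes were called in any comparison (limma), with 7 at an unadjusted p under 0.05 for DSS against control, 0 for FGF1 against control and 1 for FGF1 against DSS. Of all 13097 transcripts, 993, 583 and 759 were at that unadjusted level in the same comparisons. Over all transcripts 0% were called lower and 0.00764% higher for DSS against control, 0% and 0.0153% for FGF1 against control, and 0.0229% in each direction for FGF1 against DSS. The leading transcript of Mylk, Mylk-201, encodes the full kinase, and Mylk-203 begins inside the gene and encodes telokin, a short protein that favours relaxation. Telokin made up 21.3, 24.8, 31.5 and 20.9% in FGF1, 23.8, 20.2, 10.8 and 12.8% in DSS and 24.8, 26.2, 30.2 and 27.6% in control of Mylk FPKM. DSS 3 and DSS 4 were lowest (difference -10.3 ± 3.38 percentage points, SE, adjusted p = 0.516 for DSS against control). Cald1-204 was the leading transcript of Cald1 with 28.7, 66.4, 66.6 and 65.3% in FGF1, 64.3, 64.8, 80.7 and 13.8% in DSS and 73.8, 64.7, 59.02 and 60.4% in control. Another form, Cald1-205, held between 0.511% and 1.85% of Cald1 in 11 libraries and 59.3% in DSS 4.

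The leading transcript of Tpm2, Tpm2-203, held 89.97, 89.4, 90.5 and 86.9% in FGF1, 84.6, 87.5, 88.4 and 68.8% in DSS and 89.6, 88.00, 86.8 and 89.2% in control, and DSS 4 was the lowest. Smtn-203 led Smtn with 72.7, 66.3, 68.8 and 63.8% in FGF1, 59.6, 64.2, 65.5 and 65.5% in DSS and 75.3, 68.8, 65.4 and 68.4% in control, and the groups overlapped. Myl6-201 led Myl6 with 39.9, 52.8, 41.6 and 46.7% in FGF1, 42.9, 44.2, 55.3 and 36.5% in DSS and 37.9, 40.2, 39.7 and 41.8% in control. The 45-base exon of Myl6, which gives the light chain another last stretch of amino acids, was present in 18.1, 12.6, 21.7 and 14.5% in FGF1 libraries 1 to 4, 19.2, 15.3, 10.3 and 11.9% in DSS libraries 1 to 4 and 21.01, 21.5, 19.2 and 20.2% in control libraries 1 to 4 of the assigned FPKM. Its lowest values were in DSS 3, DSS 4 and FGF1 2, and the control libraries kept within 19.2% to 21.5%. The leading transcript of Kcnma1 averaged 0.531 FPKM, too low for shares.

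Promoter windows were read for CArG boxes because many genes of this kind are known targets of myocardin and serum response factor, which act through that element. RefSeq windows (GRCm38.p6, 250 bases before to 50 after each gene's start) were found for 28 of the 32 genes; Actg2, Myh11, Myocd and Tagln were not matched. The CArG box is a 10-base pattern that reads the same on both strands, and overlapping matches were allowed. It was present in a window of 5 of the 28 genes (Actc1, Dmd, Ldb3, Myl6 and Myl9), against 1.81% of 27025 genes. A match is a sequence of letters and not a shown binding site, and no match says only that these letters are not in this window. The stretches below, on the plus strand and with the box in capitals, are from a gene at high level that was not called and a gene at low level that fell in DSS. The box begins 161 bases before the start in Myl9 and 98 bases before it in Dmd.
Myl9 promoter, chr2:156775283-156775402: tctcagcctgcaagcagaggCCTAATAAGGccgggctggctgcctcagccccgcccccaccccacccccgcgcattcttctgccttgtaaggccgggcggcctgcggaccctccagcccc
Dmd promoter, chrX:82948750-82948869: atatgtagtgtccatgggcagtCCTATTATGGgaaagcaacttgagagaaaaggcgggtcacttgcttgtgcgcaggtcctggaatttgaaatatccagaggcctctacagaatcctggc
Of the 5 genes with a box, Dmd fell in DSS, Ldb3, Myl6 and Myl9 did not pass the test, and Actc1 was not tested. The 32 genes were a chosen set of contractile genes, and no test of enrichment was run. A part of this element in the differences between groups was not tested.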

How the data were processed

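Poly(A) RNA, selected with oligo(dT) beads from 5 µg of total RNA of mouse colon per the labels' protocols, was sequenced in 12 libraries. The authors deposited FPKM per transcript, listed once for each transcript event, on GRCm38. The submitters' processing notes name cutadapt 1.9, HISAT2 2.0.4, StringTie 1.3.4d and edgeR, without their settings or roles. No counts were used here, so depth is unknown and no counting interval is given. A transcript's FPKM was the highest over its event rows, and a gene's value was the sum over its distinct transcripts.

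Group was taken from the treatment label. Genes with at least 1 FPKM in at least 4 libraries (12578) were tested on log2(FPKM + 1) with limma 3.58.1 (R 4.3.3) in all 12 libraries, with a mean-variance trend, two-sided, with Benjamini-Hochberg adjustment over all genes tested and a threshold of 0.05. Fold changes are on the log2(FPKM + 1) scale, which understates changes of low genes. Transcript shares were tested with limma on the share itself, without a log scale and without the trend, with the same adjustment and threshold. That test covered 13097 transcripts of 4394 genes with at least 5 FPKM in every library and a mean share of 5% to 95%. The scripts were tested on simulated data. The members and lists were chosen with earlier results of these data known. Values per library are given for the members with the highest mean level in each role (up to 4) and for members that were called. The 1 gene of the list of other contraction control that rose in DSS is not reported here by name. Alternatives were the pseudocount, the filter, the transcripts summed, scaling, the design, and libraries left out.

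The replicate numbers were not used as pairs in the main fit. Similarity of same-numbered libraries is described with the alternatives.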

Additional observations from a re-analysis of the deposited data

Results flagged for a closer look

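In a group of 4 libraries, a value was singled out when its gap to the nearest of the other 3 was large against the whole range of the group (Dixon's criterion at 95%). This held for 15 of 189 groups of gene levels and transcript shares examined, and chance flags about 1 in 20 groups.

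Gene levels were singled out in 4 cases. Pcp4, which modulates calmodulin, was at 57.9 FPKM in DSS 2 and at 16.5 to 21.9 FPKM in the other DSS libraries. Actc1, cardiac actin, was at 0.327 FPKM in DSS 2 and at most 0.0317 FPKM in the others. Itga8, an integrin subunit, was at 0.855 FPKM in FGF1 3 and at 0.360 to 0.444 FPKM in the others. Myocd, the coactivator, was at 0.352 FPKM in DSS 1 and at 0.0728 to 0.117 FPKM in the others.

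The other cases were shares of a transcript in its gene. Myh11-201, with neither alternative exon, held 32.4% in FGF1 2 (3.56% to 6.05% in the other FGF1 libraries) and 20.6% in control 3 (3.26% to 5.15% in the other controls). Cald1-204 held 28.7% in FGF1 1 (65.3% to 66.6% in the others), and Cald1-205 held 59.3% in DSS 4 (0.511% to 1.13%). Flna-202 held 27.4% in control 1 (57.8% to 62.4%), Flna-203 held 20.1% in FGF1 3 (2.13% to 4.29%), and Flna-204 held 8.78% in control 3 (3.09% to 3.72%). Tpm2-205 held 30.3% in DSS 4 (7.71% to 9.84%), and Smtn-206 held 27.7% in FGF1 2 (17.2% to 18.3%). Cnn1-201 held 90.96% in FGF1 4 (95.9% to 96.8%), and Myl6-211 held 15.7% in control 4 (20.6% to 21.4%).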

How the results depend on the processing

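In DSS against control the fold changes of the smooth muscle genes stayed negative except for Tpm2 and Ldb3 under 1 alternative each, given below, while the calls varied. Of 1549 genes called, 715 were called with at least 1 FPKM required in all 12 libraries, 727 with transcripts that had a start event, 708 with an end event, 844 with the most abundant transcript, 915 without control 3 and FGF1 3, and 185 without DSS 3 and DSS 4. Of the smooth muscle genes called lower (12), the count with no filter was 5 of all 32 genes, of which 3 were among those 12 (Casq2, Pcp4 and Sgcd). It was 7 with the filter in all 12 libraries, 4 with start events, 2 with end events, 3 with the most abundant transcript, 23 with array weights, 1 without control 3 and FGF1 3, and 0 without DSS 3 and DSS 4. With 1 library left out at a time, the genes called ran from 697 to 1982 and the smooth muscle genes called lower from 0 to 21.

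For FGF1 against control (10 genes called) the count was 0 with a pseudocount of 0.1, 49 with 5, 50 with no filter, 0 with the filter in all libraries, 1 with start events, 3 with end events, 38 in a fit of those groups alone, 28 without the trend, 708 with array weights, 38 without DSS 3 and DSS 4, and 20 without control 3 and FGF1 3. Array weights called 2 smooth muscle genes lower. For FGF1 against DSS (7 genes called) it was 12 with a pseudocount of 5, 14 with the filter in all libraries, 1 with start events, 1 with end events, 15 with median-of-ratios scaling, 17 with upper-quartile scaling, 3 in a fit of those groups alone, 56 with array weights, 0 without DSS 3 and DSS 4, and 2 without control 3 and FGF1 3. Leaving out 1 library gave 0 to 83 genes for FGF1 against control and 0 to 43 for FGF1 against DSS.

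With the replicate block, 1028 genes and 5 smooth muscle genes were called for DSS against control, 1 gene for FGF1 against control and 2 for FGF1 against DSS. Libraries of the same number were mostly not the most alike. Best matches were all between libraries of different groups, and only 3 of 12 libraries had theirs in a library of their own number. Correlations of same-numbered libraries 1 to 4 were -0.19, -0.090, -0.074 and -0.068 for DSS with control. They were 0.024, 0.17, 0.40 and -0.073 for FGF1 with control, and -0.22, -0.18, -0.22 and 0.12 for FGF1 with DSS. These are not correlations of the gene levels themselves, which reached 0.969 (Spearman) between 2 libraries. Similarity alone cannot show that the numbers carry no pairing. FGF1 3 and control 3 were each other's best match.

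Reversed log2 fold changes came with start events (Tpm2 0.22 in DSS against control and 0.035 in FGF1 against control; in FGF1 against DSS Jph2 -0.50, Tpm2 -0.18, Ppp1r14a -0.050 and Dmd 0.016), with end events (Synpo2 0.46 in FGF1 against control) and with the most abundant transcript (Ldb3 0.26 in DSS against control and -0.42 in FGF1 against DSS). In FGF1 against DSS, Ppp1r14a was -0.32 without DSS 3 and DSS 4, and Ldb3 -0.028 without control 3 and FGF1 3. Leaving out 1 library gave -0.23 to 0.065 for Dmd, -0.028 to 0.33 for Ldb3 and -0.060 to 0.32 for Ppp1r14a in FGF1 against DSS, and -0.65 to 0.33 for Actg2, -1.02 to 0.15 for Cnn1 and -0.77 to 0.18 for Des in FGF1 against control. In alternatives chosen after seeing the data, mean scores with start events were 3.95 in FGF1, 3.22 in DSS and 4.59 in control, and 5.00 in DSS with a pseudocount of 5. The count of transcript shares called was 0 in all 19 alternatives. The cause of these changes was not tested.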

Other observations

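Of 9 transcripts of these genes with a mean of at least 1 FPKM that are annotated as retaining an intron, 8 had a higher mean share of their gene in DSS than in control and 1 a lower one (Myl6-207, 1.31% in DSS and 1.70% in control). The higher DSS mean of the other Myl6 transcript among them came mainly from DSS 2. In 2 of the 9, Des-202 and Tagln-203, every DSS share was above every control share. How often either result occurred among all transcripts annotated as retaining an intron was not counted. Des, Flna and Myl6 each gave more than 1 of the 9, so the 9 are not independent. A general rise of intron retention in DSS was not tested. Des-202 held 15.5%, 3.64%, 13.02% and 27.6% of Des in FGF1 libraries 1 to 4, 29.1%, 25.6%, 25.2% and 16.9% in DSS libraries, and 2.43%, 9.32%, 5.20% and 8.70% in control libraries. All DSS values were above all control values, and the difference did not pass the test (17.8 ± 4.6 percentage points, SE, limma adjusted p = 0.391). Tagln-203 held 2.91%, 2.75%, 2.12% and 3.20% of Tagln in FGF1, 4.75%, 4.32%, 7.85% and 6.41% in DSS, and 2.99%, 3.04%, 2.33% and 2.78% in control, and was too small a share to be tested. Of the other 7, Flna-211 and Flna-204 were tested and did not pass (limma adjusted p = 0.813 and 0.696 for DSS against control). Des-202 and Tagln-203 were singled out after their values were seen.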
